A study of Homo sapiens with 8 samples.

Results

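SBO05 is a sample barcode that marked 1 of 6 cultures pooled in mRNA libraries 1 and 2 of a single-cell study of HMLE cells. Its cells stood apart from 4 other cultures of the pool by a largely mesenchymal pattern of expression. Exceptions included FN1, THBS1, TNC and MFAP5, which were lower, and SNAI2, S100A4, SPARC and TGFBI, which overlapped. Further exceptions are given with each gene list. A cell was taken as SBO05 when it had at least 1000 detected genes, at most 15% of its transcripts from mitochondrial genes, and SBO05 as its only positive barcode. By this rule 1864 cells were SBO05, 1095 in library 1 and 769 in library 2, of 26247 cell barcodes in the whole series. They were set against 4 cultures of the same pool, SBO02 with 564 cells, SBO03 with 879, SBO04 with 352 and SBO06 with 1074. SBO01, also in the pool, does not belong to the comparison.

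HMLE cells are human mammary epithelial cells immortalised in culture, and the study followed the epithelial-to-mesenchymal transition (EMT) that the growth factor TGF-β induces in them, with and without pyridostatin, a small molecule that binds G-quadruplexes. Transcripts were counted as unique molecular identifiers (UMIs) from the 5′ end in 4 mRNA libraries, each matched by a library of short barcoded oligonucleotides (SBOs), which makes 8 samples with 12 barcodes. All cultures were HMLE cells, each labelled with its own barcode and pooled in equal numbers. The labels do not say which culture received TGF-β or pyridostatin, or for how long, so SBO05 and the cultures it is set against are known by their barcodes alone and no treatment effect can be read from the comparison. Each culture is 1 sample, and libraries 1 and 2 are a pair of loads of the same pool, so the difference between them is technical and spread between replicate cultures is not measured.

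SBO05 was picked because VIM, COL1A1, IGFBP4 and KCNMA1 were high in it, and every gene was measured in the same cells. All levels and differences below are therefore descriptions with no test and no p-value. In epithelial cells, E-cadherin and desmosomes hold neighbours together, tight junctions seal the sheet, keratin filaments brace it, and hemidesmosomes anchor it to laminin. During EMT these parts are taken down, vimentin replaces keratin, N-cadherin replaces E-cadherin, and the cells secrete collagens and other matrix proteins. TGF-β acts through its receptors and the SMAD proteins on the ZEB, SNAIL and TWIST families of transcription factors, of which ZEB and SNAIL proteins repress epithelial genes by binding E-box motifs in their promoters.

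The assignment of a cell rests on the barcode oligonucleotides, each 15 bases long, and their sequences are given here because they alone define the cultures compared.
SBO05: TGGTGACAAGTATCT
SBO02: AGCGAACCGCCGCTG
SBO03: GTGCAAGAGTTGGCG
SBO04: GAAGAAGCGTTATTC
SBO06: CACTCCTTGACAGGT
SBO05 differed from the other 5 barcodes of its pool at 10 to 12 positions. SBO05 cells carried a median of 1030 UMIs of their own barcode, against 136 in SBO02, 947 in SBO03, 179 in SBO04 and 476.5 in SBO06. No SBO05 cell had more UMIs of another barcode, against 114 cells of SBO02, 3 of SBO03, 58 of SBO04 and 12 of SBO06. The labels of SBO02 and SBO04 thus rest on weaker barcode signal than that of SBO05, and counts without both cultures are given beside the main ones. In libraries 3 and 4 all kept cells together held 3 and 1 UMIs of SBO05.

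Libraries 1 and 2 held 14917 cell barcodes, of which 12718 passed the filters, and 6451 of these carried a single barcode, with SBO05 on 28.9% of them. SBO05 cells had a median of 20861.5 UMIs and 4999.5 genes per cell, and the medians of the 4 other cultures were 23181 to 27087.5 UMIs and 5409 to 5623.5 genes. Thinned to 10000 UMIs, the median SBO05 cell showed 3393 genes, against 3411 to 3462. The median mitochondrial share was 1.49% in SBO05 and 1.28 to 1.34% in the other cultures. Libraries 1 and 2 shared 116 cell barcodes among kept cells, 2 of them SBO05 in both. Of the markers of other cell types, PTPRC, CD3E and NKG7 of leukocytes had no UMI in SBO05, and the leukocyte list summed to 40.4 CPM there against 22.4 to 31.6, most of it from CD68, which SBO05 held at 36.6 CPM. Endothelial markers summed to 27.5 CPM in SBO05, against 69.5 to 75.6, and stromal fibroblast markers to 32.2 CPM, against 31.5 to 42.9. The fibroblast sum hides opposite directions, as DCN and PDGFRB were above every other culture compared and PDPN was below. CPM is the UMIs of a gene, summed over the cells of a culture, scaled to a total of 1000000 gene UMIs.

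Over the 8634 genes whose levels averaged 10 CPM or more in the 5 cultures, SBO05 correlated with the other cultures at r = 0.891 to 0.900 on the log2(CPM + 1) scale. The 6 pairs among the other cultures correlated at 0.993 to 0.995, and the 2 libraries of 1 culture at 0.991 to 0.996. SBO05 was thus farther from each of the others than they were from each other or than the loads of a culture were apart, across genes, which are not independent replicates. A gene was counted as higher in SBO05 when it was at least 2-fold above the median of the 4 other cultures, by log2(CPM + 1), and above the highest of them in library 1 and again in library 2. Genes counted as lower met the mirrored rule. By it 213 genes (2.47%) were higher and 671 (7.77%) lower. The level filter averages 5 cultures, 4 of them the others, so it admits genes low in SBO05 more readily than genes high only there. Nothing is therefore read from the larger number of lower genes. For 55 of the 213 the other cultures averaged under 10 CPM, so these passed the level filter only through SBO05. Lower genes under 10 CPM in SBO05 likewise passed only through the other cultures, and their number was not counted. CDH1, DSC2, CRB3, GRHL2, ESRP1, COL17A1, ITGB6 and INHBA are among them. Without regard to size, SBO05 lay above all 4 cultures in both libraries for 2893 genes (33.5%) and below all 4 for 3007 (34.8%). Without SBO02 and SBO04, a comparison added after the data were seen, 250 genes were higher and 607 lower. At the edge of the rule, PIMREG stood just inside at 45.7 CPM in SBO05 and a median of 22.3 CPM in the others, and C11orf68 just outside at 34.8 against 16.9 CPM. On the low side CCDC71L was just inside at 11.2 against 23.5 CPM, and FHOD3 just outside at 6.01 against 13 CPM.

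**Figure D1:**
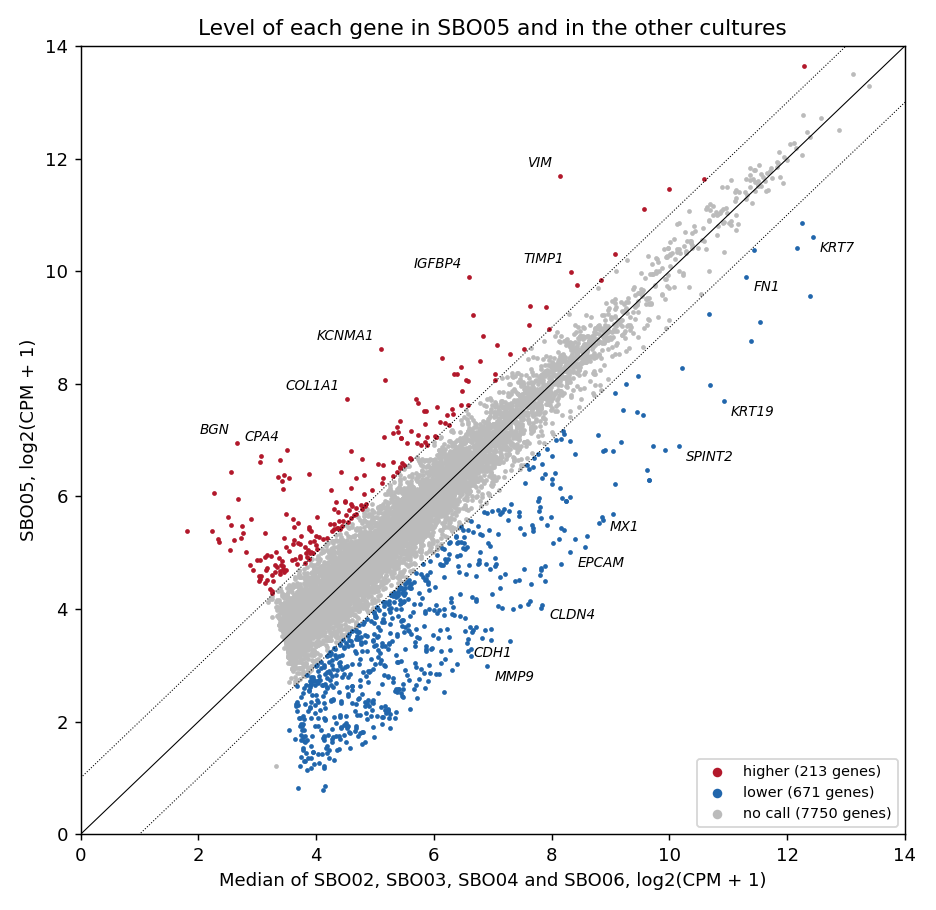
Level of each of the 8634 genes in SBO05 (vertical axis) against the median of SBO02, SBO03, SBO04 and SBO06 (horizontal axis), both as log2(CPM + 1), with dotted lines at 2-fold. The 213 higher genes (red) include VIM, IGFBP4, KCNMA1 and COL1A1, and the 671 lower genes (blue) include KRT19, EPCAM, CLDN4 and MMP9, with FN1 also among the lower.

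The 4 genes that chose the culture lay 9.68 to 11.8-fold above the median of the other cultures. VIM encodes vimentin, the intermediate filament of mesenchymal cells, and lies on chromosome 10 at 17228259 to 17237593 of hg38. It had 3306 CPM in SBO05, against 267 CPM in SBO02, 259 in SBO03, 307 in SBO04 and 298 in SBO06. The libraries gave 3225 and 3404 CPM in SBO05, while the 8 values of the other cultures lay between 221.5 and 337. IGFBP4, a secreted protein that binds insulin-like growth factors (chromosome 17, 40443461 to 40457731), had 956 CPM in SBO05, against 98.6, 90.1, 103.5 and 93.9 CPM in SBO02, SBO03, SBO04 and SBO06. KCNMA1, the pore subunit of the large-conductance calcium-activated potassium channel (chromosome 10, 76869601 to 77638369), had 394 CPM, against 28.5, 31.9, 36.3 and 34.9 CPM. COL1A1, a chain of type I collagen (chromosome 17, 50183289 to 50201632), had 212 CPM, against 26.3, 28.1, 15.5 and 17.6 CPM. None of the 4 overlapped with another culture in either library, and SBO05 stood above the median by 11.7-fold for VIM, 9.93-fold for IGFBP4, 11.8-fold for KCNMA1 and 9.68-fold for COL1A1.

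**Figure D2:**
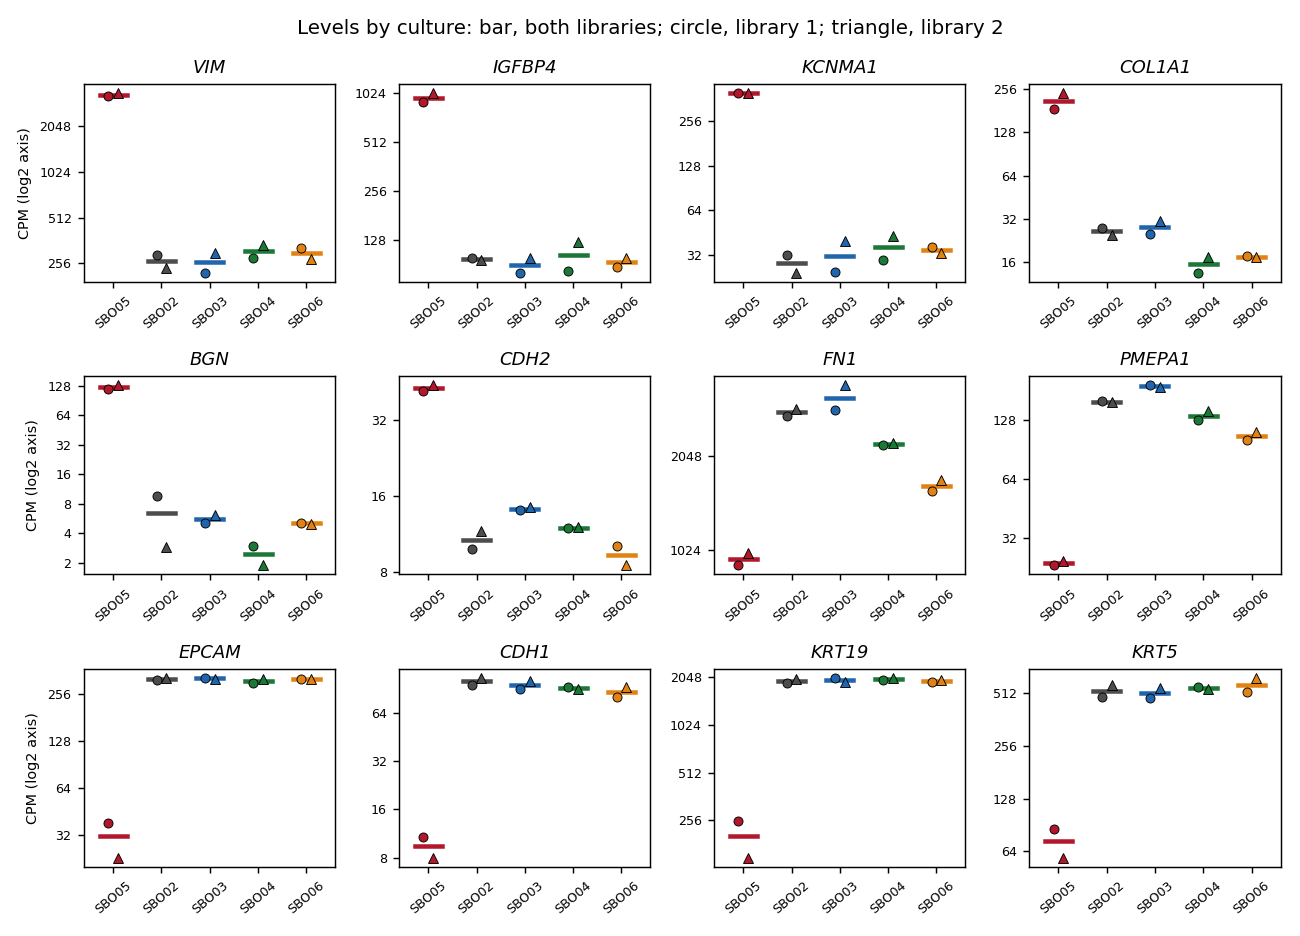
Levels of 12 genes in each culture in CPM on log2 axes that differ between panels, with SBO05 at the left of each panel. Bars are both libraries together, circles library 1 and triangles library 2. SBO05 lies above the other 4 cultures for VIM, IGFBP4, KCNMA1, COL1A1, BGN and CDH2 and below them for FN1, PMEPA1, EPCAM, CDH1, KRT19 and KRT5.

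In the mesenchymal filament and cadherin list 6 of 8 members passed the level filter. Of these 4 were higher and 0 lower, with 2.47% and 7.77% of all genes as the background, and the median log2 difference was 1.61, with 0.00 over all 8634 genes. The same background applies to the counts of every list below. VIM, which helped choose the culture, is 1 of the 4, so nothing is read from the count. CDH2, the N-cadherin gene, had 42.8 CPM in SBO05, against 10.7, 14.3, 12.0 and 9.34 CPM in SBO02, SBO03, SBO04 and SBO06. THY1, a surface glycoprotein of mesenchymal cells, had 288 CPM, against 72.3 to 106 CPM, and FSTL1, a secreted glycoprotein, 156 CPM, against 53.1 to 62.1 CPM. S100A4, a calcium-binding protein of motile cells, and SPARC, a matrix protein that binds collagen, overlapped with the other cultures. S100A4 had 27.8 CPM in SBO05 against 22.5 to 34.1 CPM, and SPARC 688 CPM against 371 to 729.5 CPM.

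Of 15 collagens 11 passed, with 7 higher, 0 lower and a median log2 difference of 1.56. The 7 were COL1A1, which helped choose the culture, COL5A1, COL5A2, COL6A1, COL6A2, COL8A1 and COL12A1. For 5 of the 7 the other cultures averaged under 10 CPM, so these passed the filter only because SBO05 was high, and the count is not support for the direction. At a filter of 20 CPM the median was -0.054. COL6A2, a chain of the beaded filaments around cells, had 65.9 CPM in SBO05, against 4.87, 3.66, 2.91 and 3.97 CPM in SBO02, SBO03, SBO04 and SBO06, and its partner COL6A1 had 60.7 CPM against 4.58 to 6.42 CPM. COL8A1, a short-chain collagen, had 96.3 CPM against 5.95 to 8.99 CPM, and COL5A2, which helps nucleate collagen fibrils, 36.9 CPM against 2.91 to 4.52 CPM. COL1A2, the partner chain of COL1A1, and COL3A1 fell short of the filter, with 33.1 CPM in SBO05 against 1.28 to 2.19 CPM and 11.6 CPM against 0.233 to 1.13 CPM. COL4A1 and COL4A2, the chains of basement membrane collagen, overlapped with the other cultures, at 38.6 against 27.0 to 51.9 CPM and 80.6 against 69.4 to 112.4 CPM. COL7A1 of anchoring fibrils and COL18A1 of basement membranes lay below all 4 cultures by less than 2-fold, at 15.6 against 18.4 to 26.1 CPM and 14.1 against 21.0 to 28.7 CPM.

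Matrix glycoproteins and proteoglycans ran in both directions, and FN1, the most abundant, was lower. Of 23 members 16 passed, with 8 higher, 4 lower and a median log2 difference of 1.03. Of the 8 higher, 6 passed only through SBO05. The median was not stable, at -0.30 with a filter of 20 CPM, 0.36 with no filter, 0.25 in library 1 alone, 0.21 with SBO01 added and 0.20 to 0.41 under the other rules for cells. BGN, the proteoglycan biglycan, had the largest difference of all 8634 genes, with 123 CPM in SBO05, against 6.49, 5.60, 2.45 and 5.03 CPM in SBO02, SBO03, SBO04 and SBO06. FBLN5, which helps assemble elastic fibres, had 40.6 CPM against 2.21 to 2.98 CPM, POSTN, a matrix protein of fibrous tissue, 48.7 CPM against 1.31 to 8.18 CPM, and FBN1, the microfibril protein fibrillin-1, 32.2 CPM against 3.84 to 6.10 CPM. CCN1 and CCN2, matricellular proteins known as targets of YAP, were also higher, at 668 against 180.5 to 231 CPM and 149.5 against 30.3 to 47.4 CPM.

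FN1 went the other way although fibronectin is widely used as a mesenchymal marker. It had 957 CPM in SBO05, against 2814 CPM in SBO02, 3136 in SBO03, 2232 in SBO04 and 1644 in SBO06. SBO05 was lowest in both libraries, with 917 and 1006 CPM, and stood at 37.9% of the other cultures' median. THBS1, thrombospondin 1, had 113 CPM against 410 to 641 CPM, TNC, the matrix protein tenascin C, 32.3 CPM against 49.2 to 80.9 CPM, and MFAP5, a microfibril protein, 2.29 CPM against 25.5 to 34.8 CPM. With these members included, the summed level of the list was 2736 CPM in SBO05 against 2916 to 4816 CPM, so the list's median and its summed level lie on opposite sides. TGFBI, a matrix protein named for its induction by TGF-β, overlapped, at 232 CPM against 180 to 385 CPM.

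Enzymes that process collagen were higher or level. Of 11 members 8 passed, with 4 higher, 0 lower and a median log2 difference of 0.94. LOXL2 and LOXL1, which crosslink collagen, had 202 CPM in SBO05 against 47.9 to 57.4 CPM and 49.0 CPM against 11.7 to 17.6 CPM. PLOD2, a lysyl hydroxylase, had 267 CPM against 87.7 to 99.9 CPM, and P4HA1, a prolyl hydroxylase subunit, 85.3 CPM against 38.7 to 48.6 CPM. SERPINH1, the collagen chaperone, lay above all 4 cultures at 280 against 155 to 194 CPM, short of 2-fold.

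Genes that join epithelial cells were lower without a measured exception. All 14 members of the adherens junction and desmosome list passed and all 14 were lower, with a median log2 difference of -2.52. CDH1 and DSC2, under 10 CPM in SBO05, passed the filter only through the other cultures. CDH1, the gene of E-cadherin (chromosome 16, 68737225 to 68835548), had 9.53 CPM in SBO05, against 100.3 CPM in SBO02, 95.2 in SBO03, 90.7 in SBO04 and 85.9 in SBO06. EPCAM, an adhesion molecule of epithelia (chromosome 2, 47345158 to 47387601), had 31.2 CPM, against 318, 322, 308 and 317 CPM. They stood at 10.2% and 9.82% of the other cultures' median. CDH3, the gene of P-cadherin of basal cells, had 20.8 CPM against 192 to 211.5 CPM. Of the desmosome, DSC2 had 6.15 CPM against 61.8 to 77.5 CPM, and DSP, the desmoplakin that links it to keratin, 59.3 CPM against 294 to 363 CPM. The smallest differences in the list were in PKP1 and CTNND1, a desmosomal plakophilin and p120-catenin, at 17.9 against 35.5 to 46.8 CPM and 40.5 against 96.4 to 106 CPM.

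Tight junction genes gave the same picture. Of 16 members 14 passed and all 14 were lower, with a median log2 difference of -2.34. CLDN4, a claudin of the seal between cells, had 15.8 CPM in SBO05, against 224, 227, 261 and 227 CPM in SBO02, SBO03, SBO04 and SBO06, which was 6.98% of the median. CLDN7 had 77.6 CPM against 758 to 905 CPM, LSR, a protein of junctions between 3 cells, 26.2 CPM against 220 to 267 CPM, and CRB3, an apical polarity protein, 3.69 CPM against 35.1 to 42.6 CPM. TJP1, the scaffold ZO-1, kept more of its level, with 74.9 CPM against 165 to 197 CPM.

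Keratins were lower in every member that passed. All 14 that passed, of 15, were lower, with a median log2 difference of -2.83, and their summed level was 4020 CPM in SBO05 against 20684 to 23637 CPM. Basal keratins KRT5 and KRT14 had 73.2 CPM against 516 to 575 CPM and 118 CPM against 824 to 928 CPM. Simple keratins KRT8 and KRT18 had 544 CPM against 2748 to 3143 CPM and 751 CPM against 4852 to 5813 CPM. KRT7 kept the largest share of the other cultures' median, 28.1%, with 1552 CPM against 4787 to 5875 CPM. KRT6A and KRT6B, keratins of stressed epithelium, had 50.2 CPM against 475 to 543 CPM and 9.94 CPM against 96.1 to 133 CPM, and these close copies may share reads. Over the 42 lower genes of the junction and keratin lists, SBO05 stood at 6.98 to 47.4% of the other cultures' median, with a median of 14.2%.

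**Figure D3:**
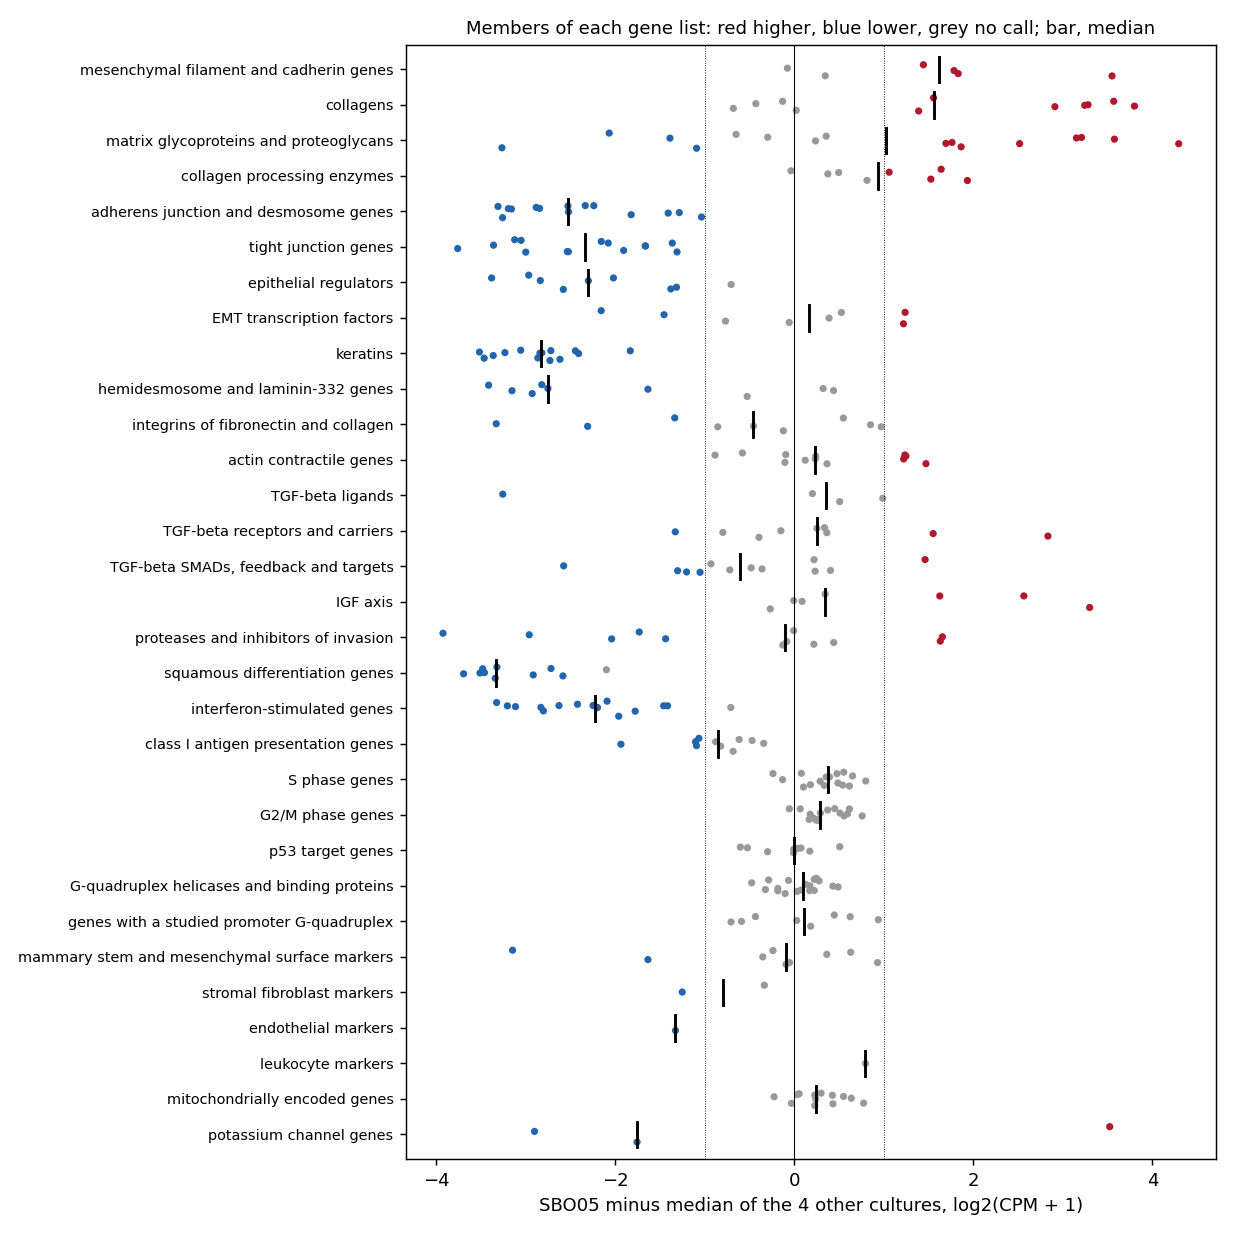
Log2 difference of each member that passed the level filter, SBO05 minus the median of the 4 other cultures, for 31 gene lists, with members in red where higher, blue where lower and grey otherwise, and a bar at each list's median. Every passing member of the 2 junction lists and the keratin list lies at or below -1, the collagens reach 3.80, and the cell cycle lists lie within 1 of zero.

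Genes that anchor epithelial cells to laminin were lower for the part found in stratified epithelium. All 9 members of the hemidesmosome and laminin-332 list passed, with 0 higher, 6 lower and a median log2 difference of -2.75. LAMA3 and LAMB3, laminin chains of the epithelial basement membrane, had 21.8 CPM in SBO05 against 154 to 209 CPM and 15.6 CPM against 153 to 203 CPM. ITGB4 and COL17A1 of the hemidesmosome had 10.4 CPM against 66.2 to 78.7 CPM and 3.30 CPM against 27.5 to 39.6 CPM. DST, PLEC and CD151, made by many cell types, were not 2-fold apart. Of the integrins of fibronectin and collagen 9 of 13 passed, with 0 higher and 3 lower, a median log2 difference of -0.46. ITGB6, whose heterodimer with the αv chain binds and activates latent TGF-β, had 3.69 CPM against 35.5 to 59.9 CPM, ITGA2 of the collagen receptor 7.36 CPM against 28.5 to 59.0 CPM, and ITGB8 9.72 CPM against 23.5 to 28.3 CPM. ITGA5, the fibronectin receptor chain, and ITGB1 lay above all 4 cultures short of 2-fold, at 92.1 against 44.5 to 49.6 CPM and 348 against 164 to 210 CPM.

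The transcription factors of EMT were mostly rare transcripts, and 6 of them were below the level filter. Of 14 members 8 passed, with 2 higher, 2 lower and a median log2 difference of 0.17, which was -0.53 at a filter of 20 CPM. TWIST1 had 38 CPM in SBO05, against 14.2, 17.1, 16.1 and 15 CPM in SBO02, SBO03, SBO04 and SBO06, and TWIST2 29.7 CPM against 11.6 to 12.9 CPM. ZEB1, ZEB2, PRRX1 and FOXC2 fell short of the filter, so no difference is counted for them. ZEB1 had 5.62 CPM against 0.497 to 0.931 CPM, ZEB2 16.1 CPM against 1.78 to 2.24 CPM, PRRX1 9.29 CPM against 0.116 to 0.386 CPM, and FOXC2 11.9 CPM against 2.40 to 2.79 CPM. In each of these 4 genes SBO05 was above all 4 cultures in both libraries, beside 2113 of all 27967 genes below the filter. Genes without UMIs can never count among the 2113, so that share is a low background. Among genes that passed it was 33.5%, and nothing is read from the comparison. SNAI2, the gene of SLUG, overlapped, at 11.9 CPM against 10.1 to 15.4 CPM, as did SNAI1, which was below the filter at 4.51 CPM against 2.55 to 4.74 CPM. SOX4 and SOX9, factors linked to EMT and to stem-like epithelial cells, were lower, at 16.5 against 56.3 to 93.4 CPM and 29.7 against 80.6 to 84.4 CPM.

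Regulators that keep cells epithelial were lower. Of 16 members 9 passed, with 0 higher, 8 lower and a median log2 difference of -2.30. The 7 members below the filter lay below all 4 cultures in both libraries, beside 2029 of all 27967 genes below the filter. Genes without UMIs can never count among the 2029, so that share is a low background. Among genes that passed it was 34.8%, and nothing is read from the comparison. ELF3, an epithelial ETS factor, had 21.7 CPM in SBO05 against 223 to 270 CPM, GRHL2, which drives CDH1 and claudin genes, 2.34 CPM against 22 to 26.4 CPM, and ESRP1, an epithelial splicing factor, 4.97 CPM against 40.1 to 43.8 CPM. OVOL2, which represses ZEB1, had 0.772 CPM against 10.6 to 13.2 CPM. TFAP2A, a factor of ectodermal lineages, was the passing member not 2-fold lower, with 54.5 CPM against 86.0 to 95.7 CPM.

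The TGF-β pathway showed no common direction. Of its ligands 4 of 9 passed, with 0 higher, 1 lower and a median log2 difference of 0.36. TGFB1 had 88.6 CPM in SBO05, against 43.3, 45.1, 48.3 and 39.5 CPM in SBO02, SBO03, SBO04 and SBO06, a log2 difference of 0.99 that lay just under the 2-fold mark. INHBA, the activin A subunit, had 3.18 CPM against 31.9 to 46.8 CPM. Of receptors and carriers 9 of 13 passed, with 2 higher, 1 lower and a median of 0.25, which was -0.80 at a filter of 20 CPM. LTBP1, which binds latent TGF-β to the matrix and passed the filter only through SBO05, had 35.3 CPM against 3.56 to 5.18 CPM, NRP1, a co-receptor, 34.7 CPM against 8.62 to 11.6 CPM, and TGFBR2, the type II receptor, 22.1 CPM against 53.5 to 68.2 CPM.

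Among SMADs, feedback genes and targets 12 of 16 passed, with 1 higher, 4 lower and a median log2 difference of -0.60. PMEPA1, a target that feeds back on SMADs, had 23.8 CPM in SBO05, against 159 CPM in SBO02, 191 in SBO03, 135 in SBO04 and 106 in SBO06. SBO05 was lowest in both libraries. SKIL and TGIF1, SMAD co-repressors, and BAMBI, a pseudoreceptor, were lower too, at 16.4 against 26.4 to 46.2 CPM, 16.4 against 32.4 to 39.3 CPM and 6.15 against 11.5 to 18.1 CPM. SMAD2, SMAD3 and SMAD4, which carry the signal, were not 2-fold apart.

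Actin contractile genes had 12 of 14 members passing, 4 higher, 0 lower and a median log2 difference of 0.24. TPM2, a tropomyosin, had 1262 CPM in SBO05, against 496, 539, 532.5 and 547 CPM in SBO02, SBO03, SBO04 and SBO06. TAGLN and MYL9 of smooth muscle had 196 CPM against 59.5 to 131 CPM and 174 CPM against 59.4 to 95.7 CPM, and MYLK, which phosphorylates myosin light chain and passed the filter only through SBO05, 26.4 CPM against 7.63 to 10.7 CPM. TPM1, another tropomyosin, was below all 4 cultures at 399 against 605 to 916 CPM. ACTA2, the smooth muscle actin of myofibroblasts, was below the filter, with 5.02 CPM against 1.55 to 2.70 CPM.

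Secreted regulators completed the profile. In the insulin-like growth factor axis 7 of 10 members passed, with 3 higher, 0 lower and a median log2 difference of 0.35. Beside IGFBP4, which helped choose the culture, these were IGFBP2, with 598.5 CPM in SBO05 against 89.99 to 105 CPM, and IGFBP7, with 412 CPM against 117 to 193 CPM, both binding proteins. IGFBP6, IGFBP3 and the receptor IGF1R overlapped. Of proteases and inhibitors 12 of 17 passed, with 2 higher, 5 lower and a median of -0.11. The higher were inhibitors, TIMP1 of metalloproteinases at 1009 against 311.5 to 340 CPM and SERPINE2 at 338 against 94.9 to 161 CPM. MMP9, a gelatinase, had the largest difference of all genes on the low side, with 6.90 CPM in SBO05, against 156 CPM in SBO02, 128 in SBO03, 110 in SBO04 and 91.6 in SBO06. PLAU and its receptor PLAUR were lower, at 50.7 against 110 to 164 CPM and 51.5 against 153 to 241 CPM, as were SERPINB2 and SERPINB5. MMP2 and MMP14, proteases of mesenchymal invasion, overlapped, at 17.5 against 9.27 to 18.7 CPM and 33.98 against 30.0 to 40.6 CPM.

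Potassium channels other than KCNMA1 were lower or rare. Of 8 members 3 passed, with KCNMA1 higher and 2 lower, KCNK1 at 3.84 CPM in SBO05 against 31.8 to 37.6 CPM and KCNN4 at 12.0 CPM against 41.7 to 44.2 CPM. KCNMB1 and KCNMB4, regulatory subunits of the KCNMA1 channel, had 0.0241 and 0.941 CPM. Among surface markers of mammary stem-like and mesenchymal cells 9 of 11 passed, with 0 higher, 2 lower and a median log2 difference of -0.09. CD24, low in stem-like mammary cells, had 88.0 CPM in SBO05 against 667 to 836 CPM, and CD44, its usual counterpart on such cells, had 136 CPM against 145.5 to 188 CPM.

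Beyond the lists above, the 12 largest higher genes at a mean of at least 20 CPM also held CADM3, ABI3BP, CPA4, PTX3, MGP and NREP. CADM3, a cell adhesion molecule best known from neurons, had 85.5 CPM in SBO05, against 4.87, 5.38, 4.08 and 4.86 CPM in SBO02, SBO03, SBO04 and SBO06. CPA4, a secreted carboxypeptidase, had 113 CPM against 8.72 to 11.8 CPM, and ABI3BP, a matrix protein, 104 CPM against 5.35 to 13.2 CPM. PTX3, a soluble pattern recognition protein, had 98.96 CPM against 4.20 to 13.4 CPM, MGP, an inhibitor of calcification, 79.9 CPM against 6.40 to 17.9 CPM, and NREP 82.0 CPM against 9.58 to 12.0 CPM. The 12 largest lower genes also held IGFL1, at 9.79 against 85.7 to 195 CPM, the noncoding RNA UCA1, at 4.78 against 56.6 to 76.4 CPM, and PRSS8, the membrane protease prostasin, at 6.54 against 74.5 to 88.9 CPM. The higher genes named here were under 20 CPM in each other culture, so they met that mean only through SBO05. IGFL1, UCA1 and PRSS8 likewise met it only through the other cultures. The rule itself requires library 1 and library 2 values on the same side of all 4 cultures, so that is no added support.

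Squamous differentiation genes were lower. Of 16 members 10 passed, with 0 higher, 9 lower and a median log2 difference of -3.33, the lowest of the 31 lists. KLK10 and KLK5, proteases of the epidermis, had 15.2 CPM in SBO05 against 139.5 to 307 CPM and 33.4 CPM against 314 to 450 CPM. SLPI, an antiprotease of mucosal surfaces, had 16 CPM against 174 to 291.5 CPM, and LCN2, an iron-trapping protein, 16.7 CPM against 150 to 228 CPM. S100A7, psoriasin, varied among the other cultures and overlapped in 1 library or more, at 1.33 CPM against 2.44 to 54.4 CPM.

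Interferon-stimulated genes were lower as well. All 16 passed and 15 were lower, with 0 higher and a median log2 difference of -2.22. MX1, an antiviral GTPase, had 48.8 CPM in SBO05, against 387 CPM in SBO02, 548 in SBO03, 542.5 in SBO04 and 268 in SBO06. OAS1, a sensor of double-stranded RNA, had 11.5 CPM against 81.0 to 143 CPM. IFI27 had 34.9 CPM in SBO05, against 206, 313, 687 and 134 CPM in SBO02, SBO03, SBO04 and SBO06, which thus differed among themselves. BST2, tetherin, was the member that overlapped, at 31.6 CPM against 29.7 to 141 CPM. In class I antigen presentation 10 of 11 members passed, with 4 lower, 0 higher and a median log2 difference of -0.85, beside 7.77% of all genes lower. All 10 lay below the 4 cultures in both libraries, beside 34.8% of all genes at any size. HLA-B had 181 CPM in SBO05 against 460 to 837 CPM and B2M, the light chain of class I molecules, 1322 CPM against 2259 to 2811 CPM. Reads of HLA-B may be shared with near copies of it.

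No member of the S phase and G2/M lists was 2-fold apart. Of 16 S phase genes 0 were higher and 0 lower, with a median log2 difference of 0.38, and 13 lay above all 4 cultures in both libraries. The 16 G2/M genes gave 0 and 0, a median of 0.28, and 14 above. These shares stand beside 33.5% of all genes above the 4 cultures at any size. TOP2A, the topoisomerase of dividing cells, had 232 CPM in SBO05, against 141, 141, 132 and 133 CPM in SBO02, SBO03, SBO04 and SBO06, and TYMS, thymidylate synthase, 356 CPM against 202.5 to 207 CPM. MKI67 had 323 CPM against 240 to 256 CPM. Of p53 targets 9 of 12 passed with 0 higher, 0 lower and a median of -0.01, and CDKN1A, the cell cycle inhibitor p21, had 180.5 CPM in SBO05 against 208 to 402 CPM, the highest in SBO02.

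Genes tied to G-quadruplexes had list medians near level. Of helicases and binding proteins 18 of 19 passed, with 0 higher, 0 lower and a median log2 difference of 0.10. Beside 2.47% and 7.77% of all genes, 0 calls in lists this short is near the background, and nothing is read from it. At any size 8 lay above all 4 cultures and 4 below, beside 33.5% and 34.8% of all genes. BLM, a helicase that unwinds G-quadruplexes, had 22.1 CPM in SBO05 against 30.9 to 32.4 CPM, and DHX36, another, 86.2 CPM against 72.7 to 76.7 CPM. Of genes with a studied promoter G-quadruplex 8 of 13 passed, with 0 higher, 0 lower and a median of 0.11. MYC had 41.4 CPM against 49.6 to 69.6 CPM, and TERT, telomerase reverse transcriptase, 75.6 CPM against 34.2 to 44.3 CPM. HMLE cells carry an introduced TERT gene, and the counts do not tell its transcripts from those of the endogenous one. Of mitochondrially encoded genes all 13 passed with 0 higher, 0 lower and a median of 0.24. Of stromal fibroblast markers 2 of 8 passed with 0 higher and PDPN, podoplanin, lower at 5.28 against 12.9 to 17.7 CPM, a median of -0.79. Of the 6 below the filter, 4 lay above all 4 cultures in both libraries, beside 2113 of all 27967 genes below the filter. That share is low because genes without UMIs can never count, and nothing is read from it. Endothelial and leukocyte markers had 1 passing member each, EGFL7 lower at a log2 difference of -1.33 and CD68 with 0.79, not counted. DCN and PDGFRB, fibroblast genes below the filter, had 6.15 CPM in SBO05 against 0.0904 to 0.309 CPM and 5.98 CPM against 0.616 to 1.45 CPM, while PDGFRA had 0.217 CPM and LUM 0.314 CPM.

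In sums over cells, fewer cells that express a gene and less RNA in each cannot be told apart, so single cells were compared after each was thinned to 10000 UMIs. This left 1726 SBO05 cells, with 138 too shallow, and 469, 748, 303 and 961 cells of SBO02, SBO03, SBO04 and SBO06. VIM was found in 99.02% of SBO05 cells (95% exact binomial interval 98.4 to 99.4%, counting error only), with a median of 29 UMIs. In the other cultures it was found in 37.5, 43.0, 44.9 and 41.1% of cells, with a median of 0. Without thinning the shares were 99.03% in SBO05 and 53.5 to 62.5% in the others. IGFBP4 was found in 95.2% of SBO05 cells against 36.6 to 41.7%, KCNMA1 in 84.9% against 14.9 to 17.2%, and COL1A1 in 53.4% against 9.26 to 14%. The level in the sums was thus spread over most SBO05 cells for VIM, IGFBP4 and KCNMA1, which helped choose the culture. Among higher genes that did not choose it, THY1 was found in 87.0% of SBO05 cells. BGN was found in 49.4%, CDH2 in 33.9% and POSTN in 17.2%, so the pattern was not uniform across cells.

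EPCAM was found in 15.1% of SBO05 cells (13.5 to 16.9%), against 87.8, 89.0, 86.1 and 88.6% in SBO02, SBO03, SBO04 and SBO06, and CDH1 in 7.01% against 49.2 to 56.3%. The unthinned shares of EPCAM were 25.7% in SBO05 and 85.5 to 89.99% in the others. KRT19, far more abundant, was found in 41.5% of SBO05 cells against 94.5 to 95.6%, with medians of 0 and 18 to 19 UMIs. FN1, lower in the sums, was still found in 97.6% of SBO05 cells, against 97.4 to 99.6%, with a median of 7 UMIs against 18, 22, 14 and 11 in SBO02, SBO03, SBO04 and SBO06. FN1 was thus lower in transcripts per cell at a like share of cells. ZEB1 was found in 5.50% of SBO05 cells against 0.426 to 0.936%, ZEB2 in 14.8% against 1.32 to 1.71%, and SNAI2 in 10.4% against 9.17 to 12.2%. TOP2A was found in 72.2% of SBO05 cells against 51.4 to 58.3%, and MKI67 in 81.9% against 76.6 to 81.1%.

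**Figure D4:**
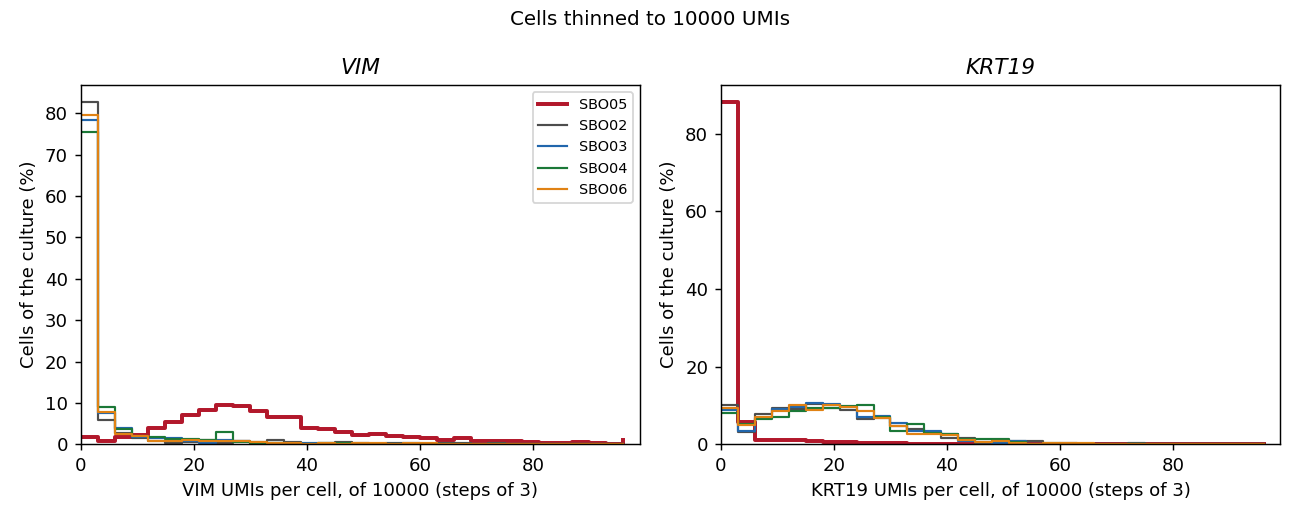
Percentage of cells of each culture by their VIM (left) and KRT19 (right) UMIs after thinning to 10000 UMIs, in steps of 3, with the last step open at the top. SBO05 (red) has its VIM peak near its median of 29 UMIs where the other cultures lie mostly under 3, and for KRT19 the order is turned round, with a median of 0 in SBO05 and 18 to 19 UMIs in the others.

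Neither side was uniform. Few SBO05 cells were low in VIM and few cells of the other cultures were high in it. At a boundary of 12 VIM UMIs, chosen after the distribution was seen, 1610 of 1726 SBO05 cells (93.3%) lay at or above it, against 205 of 2481 cells of the 4 other cultures (8.26%), with 7.25, 8.29, 9.90 and 8.22% in SBO02, SBO03, SBO04 and SBO06. These 205 cells held 71.4% of the VIM UMIs of the other cultures, so the 259 to 307 CPM in their sums came mostly from a small set of cells. They carried a median of 62 UMIs of the SBO05 barcode, against 26 in the other 2276 cells, and SBO05 was among their top 2 barcodes in 74.6%, against 44.3%. Their median depth was 19685 UMIs, against 28276. The barcode signal did not climb steadily with VIM, with medians of 53.5 UMIs at 12 to 19 VIM UMIs, 90 at 20 to 39 and 43 at 40 or more. Whether these are SBO05 cells with a wrong label was not tested.

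Several other genes differed with VIM on both sides, among them IGFBP4 and KCNMA1, which helped choose the culture. Not every gene moved in step. In SBO05 the mean of COL1A1 was 1.13 UMIs at 0 to 5 VIM UMIs, 2.49 at 20 to 39 and 1.72 at 40 or more. In the other cultures that of KRT5 was 5.56 UMIs at 0 to 5 VIM UMIs and 8.51 at 6 to 11. Among the 472 SBO05 cells with 40 or more VIM UMIs the mean per cell was 11.3 UMIs of IGFBP4, 4.98 of KCNMA1, 0.0826 of EPCAM and 0.555 of KRT19. Among the 46 SBO05 cells with at most 5 VIM UMIs it was 1.93, 0.674, 2.22 and 15.6 UMIs, with a median of 550 SBO05 barcode UMIs, against 1461 in the cells highest in VIM. In the other cultures, 2154 cells had at most 5 VIM UMIs, with means of 0.481 UMIs of IGFBP4, 0.127 of KCNMA1, 3.47 of EPCAM and 20.6 of KRT19. At 20 to 39 VIM UMIs the means of these 4 genes were 9.54, 4.28, 0.151 and 0.921 UMIs in 897 SBO05 cells and 9.04, 3.01, 0.275 and 1.51 UMIs in 102 cells of the other cultures. SBO05 cells highest in VIM held EPCAM, CDH1, KRT19, CLDN7 and KRT5 at 2.38, 4.27, 2.69, 1.99 and 4.91% of the mean in cells of the other cultures low in VIM. Free RNA as a source of these residual levels was not tested.

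**Figure D5:**
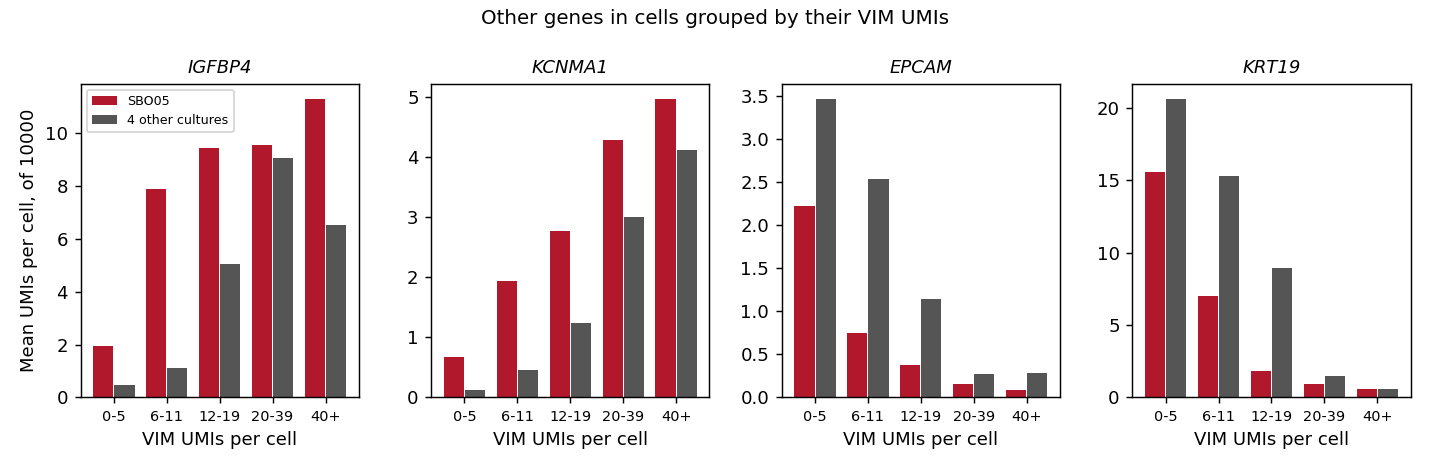
Mean UMIs per cell of IGFBP4, KCNMA1, EPCAM and KRT19, of 10000, in cells grouped by their VIM UMIs, for SBO05 (red, left bar) and the 4 other cultures together (grey, right bar). From the lowest VIM range to that of 20 to 39 UMIs, IGFBP4 and KCNMA1 are higher and EPCAM and KRT19 lower at each step on both sides, while at 40 or more IGFBP4 is lower again in the other cultures (6.51 UMIs). An example is KRT19, with 15.6 UMIs in SBO05 cells at 0 to 5 VIM UMIs and 0.555 at 40 or more.

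The levels of SBO05 also differed between the loads. In SBO05, 497 of the 671 lower genes (74.1%) had a higher level in library 1 than in library 2, beside 31 of the 213 higher genes (14.6%) and 3276 of all 8634 genes (37.9%). The median log2 difference between the libraries was 0.17 for the lower genes in SBO05, against -0.07 for the same genes in the other cultures. EPCAM for example had 38.2 and 22.8 CPM in libraries 1 and 2 of SBO05, while each other culture had 299.7 to 325 CPM. Several barcodes were found in 2305 of 7600 kept cells of library 1 and 1205 of 5118 of library 2, and the part of such pairs in the difference was not tested.

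Promoters were read for the E-box that ZEB and SNAIL proteins bind, CAGGTG or CACCTG on either strand, and for a G-quadruplex motif of 4 runs of at least 3 G with 1 to 7 bases between them, on either strand. The window ran from 250 bases before to 50 after the RefSeq start of each gene (GRCh38.p14). Of the genes counted as lower 482 of 671 had a promoter in the table, and 155 of them (32.2%) held an E-box, beside 20 of 164 (12.2%) of the higher genes, 17.3% of 7014 genes that passed the filter and 20.6% of all 27305 promoters. The G-quadruplex motif was found in 43.0% of the lower, 42.1% of the higher, 33.5% of the passing and 24.1% of all promoters, with a median GC content of 65.7, 67.2, 65.7 and 58.3%. A match is a description of letters and not evidence of binding. No promoter was available for CDH1, EPCAM and COL1A1. Of the 16 tight junction genes 11 had a promoter, and 4 of these held an E-box. CRB3 is shown as the named gene with the most E-boxes and is not typical. CLDN4 and CLDN7, also lower, held none. The 250 bases upstream of CRB3, among the lower genes, held the E-box 5 times, at -228, -208, -147, -89 and -60 from the start, and are shown with each E-box in capitals (chr19:6464021-6464270, plus strand).
CRB3: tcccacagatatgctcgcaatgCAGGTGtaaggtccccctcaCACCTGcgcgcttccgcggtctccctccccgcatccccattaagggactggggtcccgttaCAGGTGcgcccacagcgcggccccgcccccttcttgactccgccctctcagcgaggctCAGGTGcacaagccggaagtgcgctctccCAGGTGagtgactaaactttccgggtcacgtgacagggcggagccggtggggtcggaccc
The same stretch of VIM held none and is shown for comparison (chr10:17227991-17228240, plus strand).
VIM: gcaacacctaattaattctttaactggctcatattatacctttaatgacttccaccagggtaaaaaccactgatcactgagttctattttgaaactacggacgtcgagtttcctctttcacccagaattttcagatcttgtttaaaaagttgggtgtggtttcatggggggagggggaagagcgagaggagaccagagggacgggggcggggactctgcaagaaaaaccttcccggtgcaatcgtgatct
That of IGFBP4 held the G-quadruplex motif on the complementary strand, seen here as runs of C in capitals (chr17:40443200-40443449, plus strand).
IGFBP4: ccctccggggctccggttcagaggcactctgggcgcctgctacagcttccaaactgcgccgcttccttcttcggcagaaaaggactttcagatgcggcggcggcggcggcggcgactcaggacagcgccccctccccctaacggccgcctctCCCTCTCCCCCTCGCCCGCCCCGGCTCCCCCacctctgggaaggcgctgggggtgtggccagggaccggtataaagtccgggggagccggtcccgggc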

How the data were processed

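The values used were raw UMI counts per gene and per cell, deposited by the authors as 1 matrix for each mRNA library that also holds the counts of the 12 sample barcodes. Build hg38 and the programs Seurat 4.1.0, bcl2fastq 2.20.0.422 and Cell Ranger 6.0.2 are named per the submitters' processing notes, without their order or an annotation release. UMIs collapse copies from PCR, and a 5′ kit does not separate isoforms that share a start.

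Cells of libraries 1 and 2 were each assigned with HTODemux of Seurat 5.3.0 (R 4.3.3) on centred log ratios of SBO01 to SBO06, with a positive quantile of 0.99, and single-barcode cells were kept. Pairs of cells from 1 culture were not searched for and remain. UMIs were summed per culture and library, giving 41462358 for SBO05 and 8589593 to 29235165 for the 4 other cultures, and scaled to CPM in Python 3.11.15. Differences are log2(CPM + 1) with both libraries together, over genes that averaged 10 CPM or more. SBO01 of the same pool was left out of the main comparison by the rule that defines it.

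The genes named are VIM, COL1A1, IGFBP4 and KCNMA1, the 12 largest differences on each side at a mean of at least 20 CPM, and members of 31 lists. The culture, the lists and the rules were chosen with earlier results of these data known. Gene positions are from GENCODE release 29. Alternatives covered TMM scaling (edgeR 4.0.16), the pseudocount, the level filter, the assignment of cells, thinning, and leaving out a culture or a library. No paired or model test was run, because each culture is 1 sample. A few list members enter the counts but are not reported here by name.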

Additional observations from a re-analysis of the deposited data

Results flagged for a closer look

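VIM was also measured in cells outside the comparison, those left out because they carried several barcodes or none. In the 1452 cells with several barcodes and SBO05 among the highest 2, VIM stood at 2125 CPM, with IGFBP4 at 573, KCNMA1 at 241 and EPCAM at 123 CPM. In the 2058 other cells with several barcodes VIM stood at 420 CPM and EPCAM at 252 CPM, and in the 2757 cells with no barcode at 664 CPM and 270 CPM. SBO05 itself had 3306 CPM of VIM and 31.2 CPM of EPCAM, and the highest VIM level of the 4 other cultures was 307 CPM. All 3 sets of cells left out therefore held more VIM than any of the other cultures. SBO02, SBO03, SBO04 and SBO06 were also searched for a culture far from the remaining 3, in 31 summed list levels, 24 single genes and 4 medians per cell. It was found in 1 of these 59 values, CLDN4, with 261 CPM in SBO04 against 224 to 227 CPM in SBO02, SBO03 and SBO06, where chance flags about 1 in 20. SBO05 had 15.8 CPM of it.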

How the results depend on the processing

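The level filter changed the counts of genes most, by changing how many were tested, and left the difference of each single gene as it was. Genes counted as higher numbered 213 with the filter of 10 CPM, 130 at 20 CPM and 624 with none, and genes counted as lower 671, 462 and 1306. TMM scaling gave 251 higher and 612 lower genes and moved the median difference of all genes to 0.07. Leaving out 1 of the 4 other cultures or 1 library gave 195 to 232 higher and 633 to 711 lower genes, and a pseudocount of 5 gave 168 and 554. With a cell assigned by its top barcode, at least 10 UMIs and 3 times the second, SBO05 had 2819 cells, and 20.4% of them held an EPCAM UMI after thinning, against 18.9% with centring per cell and 15.1% as reported. Among the 24 largest differences the top barcode moved KRT6B to -2.42 from -3.51 and centring per cell moved IGFL1 to -2.77 from -3.85, the widest move of a gene under each. The medians of some lists changed sign. At a filter of 20 CPM the medians were -0.054 for collagens, -0.30 for matrix glycoproteins, -0.53 for EMT transcription factors and -0.80 for TGF-β receptors and carriers. With no filter they were -0.17 for TGF-β ligands and 0.23 for stromal fibroblast markers, with the top barcode -0.021 for TGF-β receptors and carriers, and in thinned cells 0.057 for surface markers. The medians of the 2 junction lists, the keratins and the interferon-stimulated genes kept their sign under every alternative run. No paired analysis was possible because each culture is 1 sample and has no replicate to pair. With SBO01 added as a further culture, 200 genes were higher and 585 lower. Spread between replicate cultures was not measured, barcodes could not be tied to treatments, and genes under the level filter, several EMT transcription factors among them, rest on few UMIs per cell.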
